A study of Mus musculus with 12 samples.

Results

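Microtubule genes were examined by RNA sequencing (12 libraries) in cell lines of mouse small-cell lung cancer (SCLC). The members were chosen by symbol alone: the alpha, beta and gamma tubulins (symbols beginning Tuba, Tubb or Tubg), the kinesin motors (Kif), and Map1a, Map1b, Map2, Map4, Mapt, Dcx and the Dclk genes. This gave 63 of the 24458 rows of the expression table. By role these were 7 alpha, 8 beta and 2 gamma tubulins, 8 neuronal transport kinesins, 7 other transport kinesins, 11 mitotic kinesins, 11 depolymerase, ciliary and other kinesins, and 9 microtubule-associated proteins. The unit is FPKM, fragments per kilobase of transcript at a fixed number of mapped fragments, so levels of different genes can be set side by side.

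The SCLC metastasizing cells (SMC) were lines SMC#1 and SMC#2, sorted for high NCAM with little or no CD44, which grow as floating spheres. They were paired with lines Non-SMC#1 and Non-SMC#2, sorted for low NCAM with high CD44, which grow attached. All 4 lines came from lung tumors of the RP mouse model, with conditional alleles of Rb1 and Trp53 deleted in both classes, on a mixed background of C57Bl/6, Balb-c and S129, and all were untreated. The study's data statement describes this deposit as SMC with or without a mutant TAZ, whereas the labels name the 4 lines above, and the labels were followed. Each line had 3 libraries, and nothing in the labels says that they came from separate cultures, so the spread behind each p-value may be technical.

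Low values gave an estimated depth of 28300000 to 43700000 mapped fragments per library. The neuroendocrine marker list (11 genes, Chga and Syp among them) summed to 1279 to 1771 FPKM in SMC libraries and 67.03 to 126 FPKM in Non-SMC libraries. The fibroblast list (10 genes) summed to 1.81 to 5.24 FPKM in SMC libraries and 568 to 2206 FPKM in Non-SMC libraries. Summed leukocyte markers were 0.968 to 2.27 FPKM in SMC libraries and 8.88 to 18.5 FPKM in Non-SMC libraries. Summed epithelial markers (9 genes) were 612 to 698 FPKM in SMC#1 and 783 to 920 FPKM in SMC#2, against 1.06 to 1.82 FPKM in Non-SMC#1 and 641 to 751 FPKM in Non-SMC#2, and 7 of the 8 tested were lower by 2-fold or more in Non-SMC#1 than in Non-SMC#2. By limma at an adjusted p under 0.05, 9 of 11 neuroendocrine markers were higher in SMC and 2 lower. Of 8 fibroblast markers tested, 7 were lower in SMC and 1 higher. Of all 13122 rows tested, 44.7% were higher and 42.4% lower. The sums of the neuroendocrine and fibroblast lists thus moved with the class of the lines, though not every gene did. The epithelial sum also separated the Non-SMC lines from each other. The part of these markers in the results that follow was not tested. In such bulk libraries, fewer cells of a type and less RNA per cell cannot be told apart.

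Microtubules are hollow polymers of alpha and beta tubulin that carry cargo in interphase and build the spindle in mitosis, and gamma tubulin nucleates them. Vertebrates use several tubulin isotypes, and neurons express a particular set of them together with kinesin motors for axonal transport and with stabilizing proteins such as MAP2 and tau. Another set of kinesins acts in spindle assembly, chromosome movement and cytokinesis, and their transcripts are known to peak in G2 and M phase. SCLC cells of the neuroendocrine type share many transcripts with neurons.

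Sequences around the start sites were taken from RefSeq on GRCm38.p6 for 52 of the 63 members, as windows of 250 bases before and 50 bases after each start. The motifs searched were chosen with the expression values known. The first was the cell cycle homology region core, TTTGAA, searched on both strands and known from promoters of genes transcribed late in the cell cycle. It was found in 9 of the 10 mitotic kinesins with a window, against 20.2% of all 27025 genes. Kif20a had no window, and Kif18a was the exception among the others. In 7 of the 10 the motif lay within 50 bases of the start, as it did in 5.72% of all genes. The 30 bases around it are shown in the direction of transcription, with the motif in capitals, because 9 of the 10 held it:
Kif11: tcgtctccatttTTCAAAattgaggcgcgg
Kif14: ggaggtcctgtcTTTGAAgtctgcagtgtc
Kif15: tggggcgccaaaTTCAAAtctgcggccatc
Kif18b: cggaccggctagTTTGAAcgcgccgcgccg
Kif20b: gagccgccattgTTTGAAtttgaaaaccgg
Kif22: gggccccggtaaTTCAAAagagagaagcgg
Kif23: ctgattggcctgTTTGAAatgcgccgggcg
Kif2c: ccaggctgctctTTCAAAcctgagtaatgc
Kif4: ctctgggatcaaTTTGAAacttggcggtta
The motif began 19 bases before the start in Kif11 and in Kif15, 17 before in Kif22, 103 before in Kif2c and 228 before in Kif14. It began at base 3 after the start in Kif23, base 4 in Kif18b, base 8 in Kif20b and base 20 in Kif4. The Kif11 stretch is chr19:37376351-37376380 on the plus strand and the Kif23 stretch is chr9:61946780-61946809 on the minus strand. Where a window held 2 matches, as in Kif15, Kif20b and Kif22, the one nearest the start is in capitals. The Kif20b stretch also holds the second match, in lower case directly after the first.

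The same motif was in 1 of 6 neuronal transport kinesins (Kif1a, in the window of 1 of its starts), 0 of 5 other transport kinesins and 0 of 7 microtubule-associated proteins with a window. Among the other groups, 2 of 10 depolymerase, ciliary and other kinesins (Kif26b and Kif27), 1 of 7 alpha tubulins (Tuba3b), 1 of 6 beta tubulins (Tubb4b) and 0 of 1 gamma tubulins held it. The CCAAT box (both strands) was in 6 of 10 mitotic kinesins and 1 of 6 neuronal transport kinesins, against 41.1% of all genes. It was also in 4 of 6 beta tubulins, 4 of 7 alpha tubulins and 4 of 7 microtubule-associated proteins. Of the other kinesins, 5 of 10 in the depolymerase, ciliary and other group and 2 of 5 other transport kinesins held it, and 0 of 1 gamma tubulins did. A match describes letters in these windows and is not evidence of binding.

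Of the 63 members, 53 reached 1 FPKM in at least 3 libraries and were tested with limma on log2(FPKM + 1), with adjustment over all 13122 rows tested. A log2 difference below is SMC minus Non-SMC, the mean of the differences within the pairs, given with its SE, and it understates the change of low genes. Between SMC and Non-SMC, 27 members rose and 18 fell at an adjusted p under 0.05, together 84.9% of the members tested, where 87.1% of all rows were called (44.7% higher and 42.4% lower). With a change of at least 2-fold also required, 11 rose and 9 fell, together 37.7% of the members, against 35.3% of all rows (18.0% higher and 17.3% lower). The members were therefore called about as often as genes at large, and the results below are about which of them moved and in which direction. All 6 SMC libraries lay above all 6 Non-SMC libraries for 17 members and below for 11, where 28.0% and 27.1% of all rows did so.

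The beta tubulins were the tubulins that differed most. Of 7 tested, 2 rose and 3 fell at 2-fold or more. Tubb6, a broadly expressed isotype, was at 1.27, 1.19 and 1.35 FPKM in SMC#1 and 1.81, 2.22 and 2.16 FPKM in SMC#2, against 110, 111 and 105 FPKM in Non-SMC#1 and 224, 220 and 242 FPKM in Non-SMC#2. The 2 classes were far apart, with means that differed 101-fold, and the log2 difference was -5.91 ± 0.05 (adjusted p = 7.98e-18). Tubb2a was at 11.0, 10.5 and 12.9 FPKM in SMC#1 and 4.09, 3.38 and 3.61 FPKM in SMC#2, against 157, 168 and 156 FPKM in Non-SMC#1 and 66.8, 63.5 and 69.8 FPKM in Non-SMC#2. It was low in every SMC library, and its log2 difference was -3.78 ± 0.06 (adjusted p = 1.85e-15). Its close copy Tubb2b was at 15.0, 13.0 and 16.5 FPKM in SMC#1 and 3.09, 2.597 and 2.87 FPKM in SMC#2, against 53.3, 53.6 and 50.6 FPKM in Non-SMC#1 and 47.9, 44.5 and 49.8 FPKM in Non-SMC#2. The classes did not overlap, and the log2 difference was -2.71 ± 0.06 (adjusted p = 6.01e-14). Tubb2a and Tubb2b share 40.2% and 29.3% of their 75-base windows with other tubulin transcripts, so the split of fragments between them is uncertain. They lie side by side (mm9 chr13:34166147-34169877 and chr13:34218877-34222223).

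Tubb4a and Tubb3 ran the other way. Tubb4a, the isotype of oligodendrocytes and neurons, was at 13.2, 12.6 and 15.0 FPKM in SMC#1 and 9.27, 9.32 and 8.51 FPKM in SMC#2, against 0.0901, 0.0803 and 0.0490 FPKM in Non-SMC#1 and 0.0411, 0.197 and 0.236 FPKM in Non-SMC#2. It was close to absent from every Non-SMC library, with a log2 difference of 3.44 ± 0.06 (adjusted p = 2.90e-15). Tubb3, the class III isotype used as a marker of neurons, was at 74.6, 74.1 and 88.9 FPKM in SMC#1 and 36.8, 32.1 and 32.1 FPKM in SMC#2, against 18.5, 21.3 and 16.4 FPKM in Non-SMC#1 and 26.5, 27.0 and 28.0 FPKM in Non-SMC#2. It was thus expressed in all 4 lines and was high mainly in SMC#1. Its log2 difference was 1.16 ± 0.07 (adjusted p = 3.43e-09), made up of 2.03 in pair 1 and 0.30 in pair 2, and the pairs differed by 1.73 ± 0.14 (adjusted p = 2.89e-07).

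The most abundant beta tubulin, Tubb5, was at 916, 850 and 1034 FPKM in SMC#1 and 906, 797 and 794 FPKM in SMC#2, against 922, 953 and 914 FPKM in Non-SMC#1 and 787, 742 and 889 FPKM in Non-SMC#2. The classes overlapped, and the log2 difference of 0.02 ± 0.08 was not called (adjusted p = 0.781), although quantile normalization raised it to 0.40 and called it. Tubb4b averaged 171 ± 37.8 FPKM in SMC and 211 ± 13.0 FPKM in Non-SMC (SD, n = 6 libraries each), with a log2 difference of -0.33 (adjusted p = 0.000719) that quantile normalization brought to 0.03, not called. By pair, Tubb4b was at -0.01 in pair 1 (adjusted p = 0.942) and -0.65 in pair 2 (adjusted p = 4.97e-05). As a share of the summed beta tubulin FPKM, Tubb5 made up 74.3% of SMC#1 and 81.3% of SMC#2, against 63.1% of Non-SMC#1 and 57.7% of Non-SMC#2. Tubb6 held 0.101% of the sum in SMC#1 and 0.203% in SMC#2, against 7.39% in Non-SMC#1 and 16.4% in Non-SMC#2. Tubb3 held 6.31% in SMC#1 and 3.29% in SMC#2, against 1.27% in Non-SMC#1 and 1.95% in Non-SMC#2. Tubb2a, Tubb2b and Tubb6 took larger shares in both Non-SMC lines than in either SMC line, and the sum itself was 975 to 1394 FPKM in SMC libraries and 1302 to 1514 FPKM in Non-SMC libraries. The FPKM total over all rows was also lower in SMC, at 289158 to 360102 in SMC libraries and 363103 to 427958 in Non-SMC libraries. Its part in the tubulin sum was not tested.

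**Figure D1:**
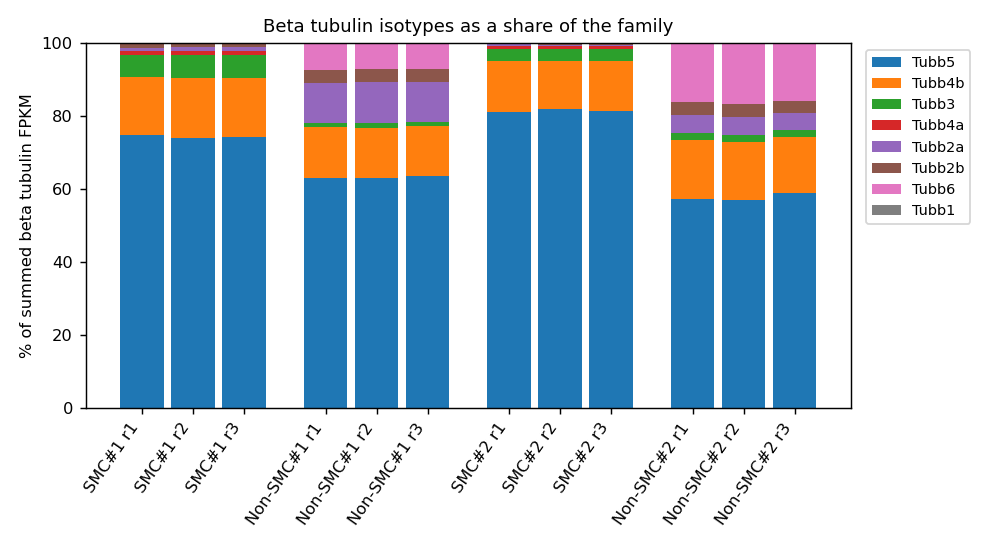
Share of each beta tubulin isotype in the summed beta tubulin FPKM of each library, in percent, with 1 bar per library (r1 to r3 are replicates). Tubb5 fills 74.3% and 81.3% of the pool on average in SMC#1 and SMC#2, against 63.1% and 57.7% in Non-SMC#1 and Non-SMC#2, where Tubb6, Tubb2a and Tubb2b take more of it.

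Among the alpha tubulins no member differed by 2-fold in the mean of the pairs, and 0 of 5 rose and 3 fell at an adjusted p under 0.05. Tuba1a, the main isotype of developing neurons, was at 738, 678 and 833 FPKM in SMC#1 and 424, 328 and 390 FPKM in SMC#2, against 597, 599 and 552 FPKM in Non-SMC#1 and 497, 399 and 485 FPKM in Non-SMC#2. It lay higher in SMC#1 than in any other line, and the classes overlapped (log2 difference 0.04 ± 0.09, adjusted p = 0.672). Under quantile normalization the difference was 0.38 and was called. Tuba1b averaged 512 ± 80.9 FPKM in SMC and 680 ± 59.8 FPKM in Non-SMC (log2 difference -0.42), and quantile normalization brought that difference to 0.00, not called. By pair, Tuba1b was at -0.21 in pair 1 (adjusted p = 0.138) and -0.63 in pair 2 (adjusted p = 0.000349). Tuba1c averaged 192 ± 34.0 FPKM in SMC and 303 ± 25.3 FPKM in Non-SMC, with no overlap (log2 difference -0.67 ± 0.08, adjusted p = 2.96e-06). These near-identical genes share 45.1% (Tuba1a), 58.8% (Tuba1b) and 56.7% (Tuba1c) of their 75-base windows, so their split is uncertain too.

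Tuba4a and Tuba8 took opposite directions in the pairs. Tuba4a was at 29.2, 27.3 and 32.0 FPKM in SMC#1, against 14.4 to 16.8 FPKM in Non-SMC#1, and at 27.9, 24.8 and 24.1 FPKM in SMC#2, against 51.9 to 62.5 FPKM in Non-SMC#2. The SMC lines were alike and the Non-SMC lines were not, with a log2 difference of 0.90 in pair 1 and -1.17 in pair 2 (both called), and the pairs differed by 2.07 ± 0.13 (adjusted p = 2.64e-08). Tuba4a overlaps Stk16 in the genome, and no strand setting was given, so reads from the stretch that the 2 genes share cannot be told apart. The mean of the pairs for Tuba4a (-0.13, adjusted p = 0.0778) was called without SMC#1 replicate 3, SMC#2 replicate 1 or Non-SMC#2 replicate 2 (adjusted p of 0.0205 to 0.0443). Tuba8, low in all lines, had log2 differences of 0.51 in pair 1 and -0.90 in pair 2. Its mean (-0.19, adjusted p = 0.0256) was not called without SMC#1 replicate 1, SMC#2 replicate 3, Non-SMC#1 replicate 2 or Non-SMC#2 replicate 1 (adjusted p of 0.0584 to 0.0700). Tuba3a and Tuba3b, which are testis isotypes, and Tubb1, the isotype of platelets, did not pass the filter. Tubb1 was at 0 to 0.650 FPKM in SMC libraries.

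The gamma tubulins were unequal. Tubg1, the ubiquitous copy, averaged 81.0 ± 16.0 FPKM in SMC and 71.1 ± 12.6 FPKM in Non-SMC (log2 difference 0.18, adjusted p = 0.0213). Neither pair alone was called, with 0.21 in pair 1 (adjusted p = 0.0556) and 0.15 in pair 2 (adjusted p = 0.149). The call for the mean of the pairs was lost without SMC#1 replicate 3 (adjusted p = 0.0551), without SMC#2 replicate 1 (0.0501) and without Non-SMC#2 replicate 2 (0.0504). Tubg2, the copy known for its expression in brain, was at 13.4, 11.9 and 14.8 FPKM in SMC#1 and 10.5, 9.24 and 9.46 FPKM in SMC#2, against 0.926, 1.501 and 1.24 FPKM in Non-SMC#1 and 0.0813, 0.275 and 0.180 FPKM in Non-SMC#2. It was high in every SMC library, with a log2 difference of 2.94 ± 0.07 (adjusted p = 2.54e-13). The 2 genes are near neighbours (mm9 chr11:100981445-100987733 and chr11:101017198-101023101) and share 7.64% (Tubg1) and 7.86% (Tubg2) of their 75-base windows with other tubulin transcripts.

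**Figure D2:**
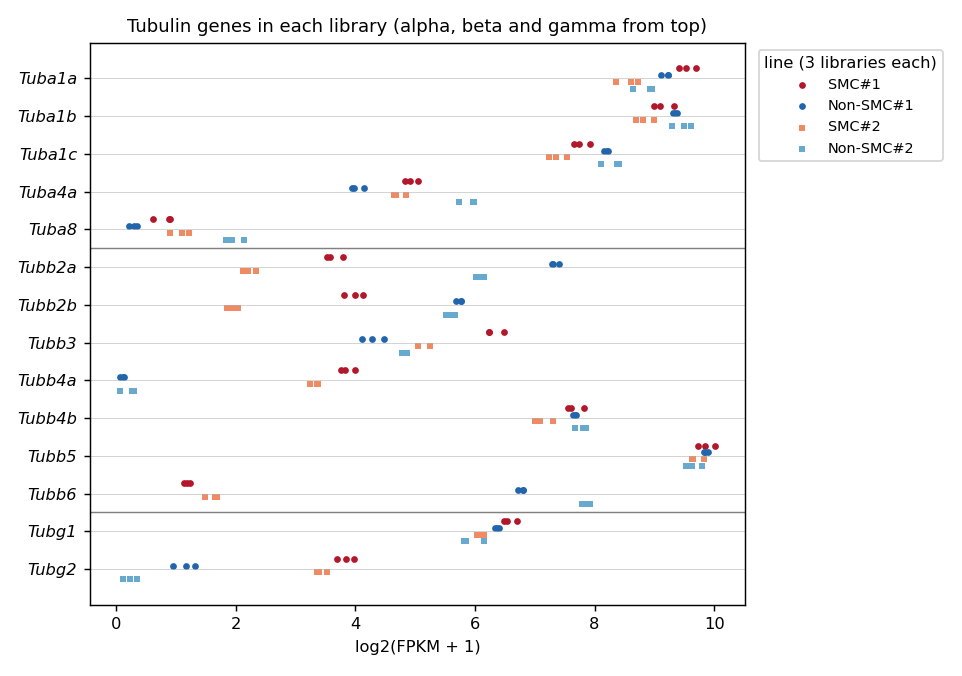
Level of each tested tubulin gene in each of the 12 libraries, as log2(FPKM + 1), with 1 point per library and 1 row of points per line. Tubb4a and Tubg2 lie to the right in both SMC lines, Tubb2a, Tubb2b and Tubb6 lie to the right in both Non-SMC lines, and Tubb5 overlaps between the classes.

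The neuronal transport kinesins were higher in SMC in 6 of 7 tested members, and 3 rose and 1 fell at 2-fold or more. Their median log2 difference was 0.51, where the median over all rows tested was 0.02. Kif1a, the axonal motor for synaptic vesicle precursors, was at 22.4, 21.8 and 22.1 FPKM in SMC#1 and 14.9, 15.0 and 13.9 FPKM in SMC#2, against 0.845, 0.948 and 0.783 FPKM in Non-SMC#1 and 0.0486, 0.0525 and 0.125 FPKM in Non-SMC#2. It was below 1 FPKM in every Non-SMC library, with a log2 difference of 3.75 ± 0.04 (adjusted p = 9.66e-17). Of the conventional kinesin heavy chains, Kif5c, enriched in neurons, was at 42.5, 39.1 and 37.9 FPKM in SMC#1 and 26.8, 25.8 and 27.7 FPKM in SMC#2, against 6.22, 5.51 and 5.52 FPKM in Non-SMC#1 and 0.878, 0.818 and 0.841 FPKM in Non-SMC#2. All 6 SMC libraries were higher, with a log2 difference of 3.25 ± 0.05 (adjusted p = 8.04e-16). Kif5a, its neuronal relative, was at 8.91, 9.13 and 8.38 FPKM in SMC#1 and 9.75, 11.3 and 9.39 FPKM in SMC#2, against 2.80, 3.09 and 2.94 FPKM in Non-SMC#1 and 0.108, 0.0527 and 0.125 FPKM in Non-SMC#2. The SMC lines were alike while the Non-SMC lines differed, so that the log2 difference of 2.33 ± 0.05 (adjusted p = 5.50e-14) came from 1.31 in pair 1 and 3.34 in pair 2. The ubiquitous copy Kif5b, whose mean was 98.4 ± 10.3 FPKM in SMC and 59.7 ± 11.5 FPKM in Non-SMC, differed by 0.73 ± 0.10, under 2-fold.

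Kif21b, a neuronal kinesin that restrains microtubule growth, was the member of this group that fell. It was at 0.865, 0.907 and 0.801 FPKM in SMC#1 and 0.638, 0.822 and 0.619 FPKM in SMC#2, against 9.76, 9.67 and 9.44 FPKM in Non-SMC#1 and 6.92, 11.2 and 12.8 FPKM in Non-SMC#2. The classes were well apart, with a log2 difference of -2.61 ± 0.11 (adjusted p = 4.59e-11). Its relative Kif21a differed by 0.51 ± 0.05, with 0.11 in pair 1 (not called) and 0.92 in pair 2. Kif3c and Kif1b rose by 0.47 and 0.44, under 2-fold, and Kif17, a motor of dendrites, stayed below the filter at 0.121 to 0.234 FPKM in SMC libraries and 0 to 0.0501 FPKM in Non-SMC libraries.

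The other transport kinesins had a median log2 difference of -0.16, with 2 of 7 higher, 4 lower and 1, Kif16b, not called (-0.09, and -0.16 and called under quantile normalization). Kif1c, a motor between the Golgi apparatus and the endoplasmic reticulum and along the processes of migrating cells, was at 3.08, 2.84 and 2.83 FPKM in SMC#1 and 3.56, 3.86 and 3.34 FPKM in SMC#2, against 38.6, 40.3 and 38.4 FPKM in Non-SMC#1 and 35.5, 42.2 and 51.3 FPKM in Non-SMC#2. It was low in both SMC lines to the same degree, with a log2 difference of -3.30 ± 0.07 (adjusted p = 7.44e-14), and it alone of this group passed 2-fold. Kif1a and Kif1c, which belong to 1 kinesin family, thus changed in opposite directions. Kif13b rose by 0.82 and Kif13a fell by 0.32. Kif3a, a subunit of the ciliary motor kinesin-2, averaged 13.0 ± 0.207 FPKM in SMC#1 against 9.78 ± 0.209 FPKM in Non-SMC#1, and 8.63 ± 0.438 FPKM in SMC#2 against 14.8 ± 2.76 FPKM in Non-SMC#2. It was called in opposite directions in the pairs. Its call for the mean of the pairs (-0.16, adjusted p = 0.0454) was lost when any 1 library other than Non-SMC#2 replicate 3 was left out (adjusted p of 0.0554 to 0.0992). The call was also lost with a block for the replicate number (adjusted p = 0.0543), under quantile normalization (-0.11, adjusted p = 0.14) and under median-ratio scaling (-0.11, adjusted p = 0.128). Without Non-SMC#2 replicate 3 the Kif3a difference was -0.22 (adjusted p = 0.00133). The partner subunit Kif3b fell by 0.28 on the log2 scale.

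The mitotic kinesins differed little. Of 11 tested, 6 rose, 1 fell and 4 were not called. By limma 0 passed 2-fold, where 35.3% of all rows did. An unadjusted p under 0.05 was found for 8 of them and for 11500 of all 13122 rows. Their median log2 difference was 0.26, and without Non-SMC#2 replicate 3 it was 0.16. Kif11 (Eg5), which pushes spindle poles apart, was at 28.6, 31.5 and 27.1 FPKM in SMC#1 and 40.7, 45.3 and 44.9 FPKM in SMC#2, against 29.0, 28.6 and 28.6 FPKM in Non-SMC#1 and 24.7, 26.4 and 22.9 FPKM in Non-SMC#2. Only SMC#2 stood higher, and the log2 difference of 0.41 ± 0.05 (adjusted p = 9.17e-06) came from 0.01 in pair 1 (not called) and 0.80 in pair 2. Kif23 (MKLP1), a motor of the central spindle, was at 21.3, 21.1 and 20.5 FPKM in SMC#1 and 28.2, 28.5 and 28.1 FPKM in SMC#2, against 19.8, 19.6 and 17.7 FPKM in Non-SMC#1 and 29.9, 28.7 and 27.1 FPKM in Non-SMC#2. It followed the pair rather than the class, at 0.06 ± 0.04 (adjusted p = 0.220), and quantile normalization (0.23) and median-ratio scaling (0.11) called it. Kif20a (MKLP2), which acts in cytokinesis, was at 37.0, 36.5 and 37.5 FPKM in SMC#1 and 45.6, 42.7 and 43.2 FPKM in SMC#2, against 63.8, 63.4 and 60.9 FPKM in Non-SMC#1 and 61.7, 66.2 and 67.1 FPKM in Non-SMC#2. It was the mitotic kinesin that fell, with no overlap (log2 difference -0.65 ± 0.04, adjusted p = 8.91e-09), and Brd8 and Cdc23 overlap it in the genome.

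The others that rose were Kif15 (0.49), the chromokinesins Kif4 (0.41) and Kif22 (0.26), the depolymerase Kif2c of centromeres (0.29) and Kif18a (0.26), which dampens chromosome movements. In the mean of the pairs Kif14 (-0.01), Kif18b (-0.16) and Kif20b (-0.30) were not called. The mean for Kif18b was called without SMC#2 replicate 2 (adjusted p = 0.0327) or Non-SMC#2 replicate 1 (adjusted p = 0.00351). By pair, 4 mitotic kinesins rose and 4 fell in pair 1, and 7 rose and 1 fell in pair 2. Of all 13122 rows, 5767 rose and 4785 fell in pair 1, and 5142 rose and 5621 fell in pair 2. Kif18a was at 0.02 in pair 1 (not called) and 0.50 in pair 2. Kif18b (-0.43) and Kif20b (-0.67) were called lower in pair 1 and were not called in pair 2. For Kif20b, Non-SMC#2 replicate 3 was at 7.92 FPKM, against 21.3 and 21.5 FPKM in the other two libraries of that line. Without that library the Kif20b difference was -0.52 (adjusted p = 9.07e-06). Summed over the 11 genes, the mitotic kinesins came to 233 to 295 FPKM in SMC libraries and 245 to 263 FPKM in Non-SMC libraries, with the SMC#1 libraries (233 to 241) under and the SMC#2 libraries (289 to 295) over the Non-SMC range. The summed neuronal transport kinesins were 94.3 to 124 FPKM in SMC libraries and 35.9 to 53.7 FPKM in Non-SMC libraries, without overlap. Of 15 other mitosis and replication genes, 6 rose, 5 fell and 4 were not called, 0 passed 2-fold, and the median log2 difference was 0.10. Mki67, with 75.4 FPKM in SMC and 43.6 FPKM in Non-SMC on average, was among those that rose, and Aurkb, with 33.8 FPKM in SMC and 48.5 FPKM in Non-SMC, among those that fell. These 2 were chosen after their values were seen.

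**Figure D3:**
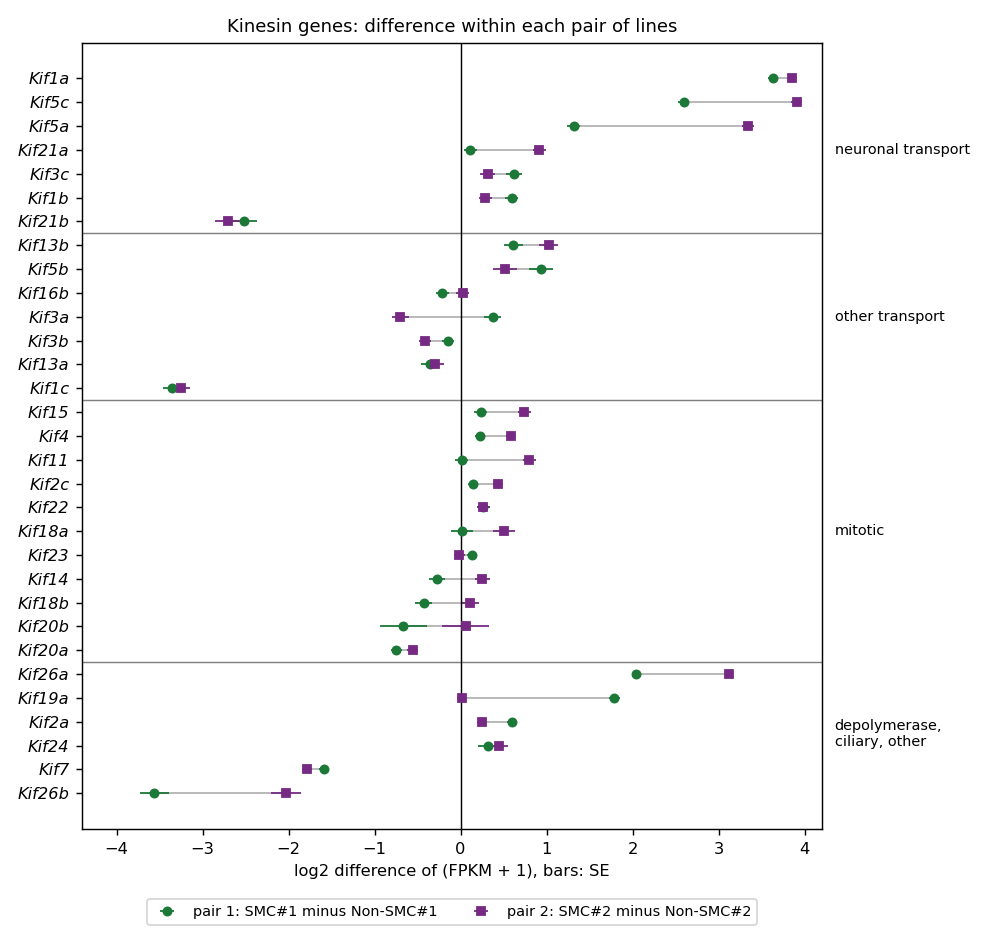
Difference of each tested kinesin within pair 1 (SMC#1 minus Non-SMC#1, circles) and pair 2 (SMC#2 minus Non-SMC#2, squares), as log2 of (FPKM + 1), with bars for the SE of the limma fit and genes grouped by role. The mitotic kinesins lie within 0.80 of 0 in both pairs, whereas Kif1a, Kif5c, Kif5a and Kif26a lie far to the right and Kif1c, Kif21b, Kif7 and Kif26b far to the left.

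Among the remaining kinesins, 4 of 6 tested rose and 2 fell, with 1 and 2 past 2-fold. Kif26a and Kif26b, kinesins of 1 family, changed in opposite directions. Kif26a was at 3.18, 3.0 and 3.22 FPKM in SMC#1 and 7.65, 8.10 and 7.81 FPKM in SMC#2, against 0 to 0.0140 FPKM in Non-SMC#1 and 0.0103 to 0.0210 FPKM in Non-SMC#2. It was barely detected in Non-SMC (log2 difference 2.58 ± 0.03, adjusted p = 4.26e-16). Kif26b was at 0.569, 0.595 and 0.401 FPKM in SMC#1 and 0.923, 1.18 and 0.926 FPKM in SMC#2, against 17.5, 16.5 and 16.8 FPKM in Non-SMC#1 and 4.79, 7.38 and 10.2 FPKM in Non-SMC#2. It was lower in every SMC library (log2 difference -2.79 ± 0.12, adjusted p = 9.65e-11). Kif7, a regulator of Hedgehog signalling at the cilium tip, was at 0.00661 to 0.0984 FPKM in SMC libraries and 2.10 to 2.82 FPKM in Non-SMC libraries (log2 difference -1.69 ± 0.04), and the gene Ticrr overlaps it. Kif19a, which shortens ciliary microtubules, was at 2.64, 2.44 and 2.28 FPKM in SMC#1 and at 0.291 FPKM or less in every other library. Kif2a and Kif24 rose by 0.42 and 0.38, and the call for Kif24 was lost under quantile normalization. Kif12, Kif2b, Kif6, Kif9 and Kif27 did not pass the filter. Kif27 was at 0.283 to 0.583 FPKM in SMC libraries and 0 to 0.116 FPKM in Non-SMC libraries.

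All 8 tested microtubule-associated proteins were called, 5 higher and 3 lower, where 87.1% of all rows were called. Past 2-fold, 4 were higher and 2 lower, where 18.0% and 17.3% of all rows were. Map2, Mapt, Map1a and Dclk3 also differed by 2-fold or more between SMC#1 and SMC#2. Map2, the stabilizer of dendrites, was at 60.0, 68.2 and 58.3 FPKM in SMC#1 and 20.1, 22.6 and 20.7 FPKM in SMC#2, against 2.42, 2.69 and 2.41 FPKM in Non-SMC#1 and 9.66, 11.2 and 8.99 FPKM in Non-SMC#2. The lines kept apart from each other without overlap. The log2 difference was 2.59 ± 0.06 (adjusted p = 1.37e-13), with 4.17 in pair 1 and 1.02 in pair 2. Mapt, which encodes tau, the stabilizer of axons, was at 7.24, 8.54 and 8.55 FPKM in SMC#1 but 0.0886, 0.180 and 0.114 FPKM in SMC#2, against 0.0702, 0.0315 and 0.136 FPKM in Non-SMC#1 and 0.0600, 0.126 and 0.114 FPKM in Non-SMC#2. High Mapt was thus found in SMC#1 alone of the 4 lines, with 3.08 in pair 1 and 0.04 in pair 2 (adjusted p = 0.632). The pairs differed by 3.15 for Map2 (adjusted p = 2.01e-10) and by 3.04 for Mapt (adjusted p = 2.54e-11). The mean of the pairs for Mapt, 1.56, therefore describes neither pair.

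The doublecortin-like kinases moved apart. Dclk2 was at 33.9, 33.1 and 33.3 FPKM in SMC#1 and 29.0, 30.0 and 27.9 FPKM in SMC#2, against 2.54, 2.16 and 2.56 FPKM in Non-SMC#1 and 0.651, 1.17 and 1.00 FPKM in Non-SMC#2. Dclk1 was at 1.41, 1.68 and 1.60 FPKM in SMC#1 and 2.71, 3.01 and 2.73 FPKM in SMC#2, against 38.5, 37.5 and 38.9 FPKM in Non-SMC#1 and 36.6, 36.8 and 36.3 FPKM in Non-SMC#2. Each gene was high in both lines of 1 class and low in both of the other, at 3.65 ± 0.06 for Dclk2 (adjusted p = 6.60e-15) and -3.62 ± 0.04 for Dclk1 (adjusted p = 1.28e-16). Dclk3 was at 0.609 to 1.18 FPKM in SMC#1 and 5.75 to 6.94 FPKM in SMC#2, against 0.0540 FPKM or less in every Non-SMC library. Dcx, the doublecortin of migrating neurons, was at 0.854, 1.46 and 0.820 FPKM in SMC#1 and 0.249, 0.340 and 0.348 FPKM in SMC#2. In Non-SMC libraries Dcx was at 0 to 0.00888 FPKM. It reached 1 FPKM in 1 library and was not tested.

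Map4, the main stabilizer outside neurons, was at 14.1, 13.0 and 14.1 FPKM in SMC#1 and 11.2, 12.1 and 9.80 FPKM in SMC#2, against 49.9, 49.8 and 48.4 FPKM in Non-SMC#1 and 35.1, 45.7 and 59.9 FPKM in Non-SMC#2. It was lower in both SMC lines (log2 difference -1.87 ± 0.10, adjusted p = 9.56e-10). Map1b, an early axonal protein, was at 44.5, 46.6 and 42.2 FPKM in SMC#1 and 33.2, 39.6 and 35.8 FPKM in SMC#2, against 37.5, 34.8 and 34.6 FPKM in Non-SMC#1 and 15.3, 18.1 and 19.95 FPKM in Non-SMC#2. SMC#2 and Non-SMC#1 overlapped, and the difference of 0.65 ± 0.07 (adjusted p = 8.48e-07) was under 2-fold. Map1a was at 1.27 to 1.53 FPKM in SMC#1 against 7.37 to 8.16 FPKM in Non-SMC#1, but at 4.64 to 5.19 FPKM in SMC#2 against 2.75 to 6.21 FPKM in Non-SMC#2, and the pairs differed by 2.09 on the log2 scale (pair 1 minus pair 2, -2.09 ± 0.24). Map1a overlaps Ppip5k1. Long genes such as Map4, Kif1c, Map1a and Kif26b varied among the Non-SMC#2 libraries. There, genes with transcripts under 2 kb were higher in replicate 1 than in replicate 2 by a median of 0.26 on the log2 scale, and genes over 6 kb differed by -0.19. The part of this in their values was not tested.

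**Figure D4:**
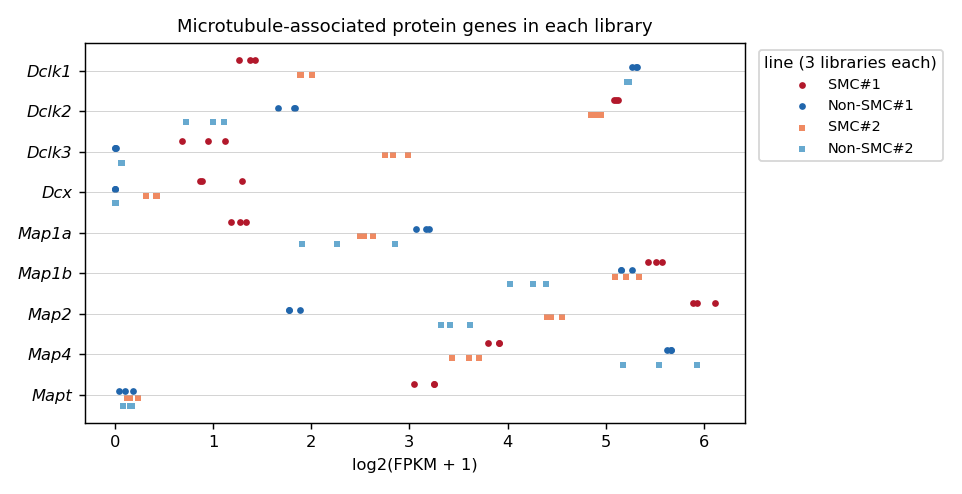
Level of each microtubule-associated protein gene in each of the 12 libraries, as log2(FPKM + 1), with 1 point per library and 1 row of points per line. Dclk2 lies to the right in both SMC lines and Dclk1 and Map4 in both Non-SMC lines, Map2 falls into 4 separate clusters, and Mapt is high in SMC#1 alone.

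Each pair was also read alone. In pair 1, 11 members rose and 10 fell at 2-fold or more (39.6% of members, against 35.9% of all rows). In pair 2, 10 rose and 10 fell (37.7%, against 37.2% of all rows). In both pairs alike, 8 rose (12.2% of all rows did) and 9 fell (11.8%). Those that rose were Tubb4a, Tubg2, Kif1a, Kif5a, Kif5c, Kif26a, Map2 and Dclk2, and those that fell were Tubb2a, Tubb2b, Tubb6, Kif21b, Kif1c, Kif7, Kif26b, Map4 and Dclk1. The size of the difference depended on the pair by 2-fold or more for 14 members (26.4%, against 21.4% of all rows), and 4 members (Kif14, Kif3a, Tuba4a and Tuba8) were called in opposite directions, where 6.81% of all rows were. Between lines of 1 class, 9 members differed by 2-fold or more between SMC#1 and SMC#2 (17.0%, against 11.4% of all rows), and 8 between Non-SMC#1 and Non-SMC#2 (15.1%, against 12.4%).

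The same table held other microtubule genes, listed by role. Of 9 kinesin-14 motors and kinesin cargo subunits, with CENP-E, 5 rose and 3 fell. Among them the kinesin light chains Klc1 (103 FPKM in SMC and 36.1 FPKM in Non-SMC on average, log2 difference 1.38) and Klc3 (1.38) rose, mostly in pair 1 (2.01 and 2.10, against 0.74 and 0.66 in pair 2), whereas Kifc3, an epithelial minus-end motor, fell (3.63 FPKM in SMC and 21.0 FPKM in Non-SMC, log2 difference -2.59). Of 18 dynein and dynactin genes, 6 rose and 8 fell, with 2 in each direction past 2-fold. These were Dync1i1, the neuronal intermediate chain (2.00), and Dynlt1b (1.77), and on the other side Nde1 (-1.17) and Dynlt3 (-1.04). Each of the 4 passed 2-fold in 1 pair only, with 3.11 in pair 1 and 0.89 in pair 2 for Dync1i1, 0.43 and 3.10 for Dynlt1b, -1.51 and -0.84 for Nde1, and -0.55 and -1.52 for Dynlt3. Of 19 tubulin folding and modification genes tested, 8 rose and 6 fell. Vash1, which removes the terminal tyrosine of alpha tubulin, was at 13.7 FPKM in SMC and 1.22 FPKM in Non-SMC on average (log2 difference 2.74), and Ttll12 was at 11.7 FPKM in SMC and 46.8 FPKM in Non-SMC (-1.94). The tubulin cofactors Tbca, Tbcb, Tbcd and Tbce were all lower in SMC, at -0.45, -0.72, -0.99 and -0.38, and Tbcc, at -0.12, was not called. These were chosen after their values were seen.

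Of 26 plus-end, severing and other microtubule-binding genes tested, 14 rose and 8 fell, with 8 and 3 past 2-fold. Map7d2, a kinesin-1 recruiter, was at 9.22 to 24.1 FPKM in SMC libraries and 0.0172 to 0.0700 FPKM in Non-SMC libraries (log2 difference 3.96). Camsap3, which holds the minus ends of epithelial microtubules, averaged 18.5 FPKM in SMC libraries and was at 0 to 1.61 FPKM in Non-SMC libraries (3.70). The severing enzyme spastin, Spast, was at 52.9 to 59.6 FPKM in SMC libraries and 10.2 to 12.6 FPKM in Non-SMC libraries (2.19), a gene chosen after its values were seen. Map7d1, at 21.0 to 34.6 FPKM in SMC libraries and 60.8 to 96.4 FPKM in Non-SMC libraries, fell (-1.59). Mid1, a microtubule-bound ubiquitin ligase, fell by 1.88 in the mean of the pairs, but its log2 difference was 1.37 in pair 1 and -5.14 in pair 2.

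Likeness of pattern was described by Pearson's r of log2(FPKM + 1) over the 12 libraries, among 10585 rows with at least 5 FPKM in some line. The points are 4 lines with 3 libraries each, so a high r reflects agreement over few levels. For Tubb3, rows among the most alike were Dusp8 (0.99), Slc35f2 (0.98), Dusp16 (0.98) and Sema6d (0.98). For Kif1a they were Soga3, Dlgap3, Coq10a, Robo1 and Smpd3, all with r between 0.998 and 0.999. For Kif11 they were Rabgap1l (0.98), Nmnat2 (0.97), Zfp770 (0.96), Fut11 (0.96) and Aplp2 (0.96).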

How the data were processed

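RNA was measured in 12 libraries of 4 lines. The authors mapped paired-end reads with STAR 2.6.1b and used DESeq2 for differential expression, by their methods and processing notes. They deposited FPKM values, 1 per row and library, by a tool not given in the sources used here. Although mm10 is named, the positions in the table are not those of that build and were taken as mm9 (of 22882 rows matched by symbol, 2531 overlapped their GRCm38 position), and are printed with the first base counted as 1. Depth was estimated from the spacing of low values in 2941 genes with an assumed fragment length of 300 bp. FPKM is a share of each library, and a value of 0 can be a failed estimate (4 of 77 ribosomal protein rows were at 0 in every library).

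The 13122 rows that reached 1 FPKM in 3 or more libraries entered limma 3.58.1 in R 4.3.3 (trend and robust options) on log2(FPKM + 1), with a mean for each line. Tests were two-sided with Benjamini-Hochberg adjustment over all rows. The study's count-based test was not run, since the table holds no counts. Calls required an adjusted p under 0.05 and, where stated, a log2 difference of at least 1. Values in every library are given for 17 members fixed by name, for up to 3 members of each role per direction with the largest change at 2-fold or more and at least 5 FPKM, and for members whose pairs differed. From each other list up to 2 genes per direction are named by that rule. Members, roles, lists and naming rule were chosen with earlier results of these data known. The fit was tested on simulated data. Alternatives were another pseudocount and filter, quantile and median-ratio scaling, a replicate block, lines as units and each library left out. Some results are not reported here.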

Additional observations from a re-analysis of the deposited data

Results flagged for a closer look

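In 14 members the difference between SMC and Non-SMC depended on the pair by 2-fold or more (pair 1 minus pair 2, limma interaction, adjusted over all rows, 21.4% of which passed). The difference was larger in pair 1 for Map2 (3.15), Mapt (3.04), Tuba4a (2.07), Tubb2b (1.89, less negative in pair 1), Kif19a (1.77), Tubb3 (1.73), Tuba8 (1.41) and Kif3a (1.07). It was smaller or more negative in pair 1 for Map1a (-2.09), Kif5a (-2.03), Dclk3 (-1.88), Kif26b (-1.53), Kif5c (-1.31) and Kif26a (-1.08).

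In 2 of 106 groups of 6 libraries, 1 library lay far from the rest. Non-SMC#2 replicate 3 had 7.92 FPKM of Kif20b, and Non-SMC#2 replicate 1 had 5.27 FPKM of Kif3c, each the lowest of the 6 Non-SMC libraries. The cut-off would mark about 1 in 20 groups of 6 libraries drawn from 1 population. Each group here joined 2 lines with 3 libraries each, so that rate does not hold for these groups.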

How the results depend on the processing

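With lines as the units of the fit (2 against 2, with a term for the pair), 14 of 53 members were called, 6 higher (also 6 at 2-fold or more) and 8 lower. Of all 13122 rows, 2389 were called in this fit, 1114 higher and 1275 lower. The members called were Tubb4a, Tubg2, Kif1a, Kif5c, Kif26a and Dclk2, and Tubb2a, Tubb2b, Tubb6, Kif1c, Kif21b, Kif26b, Map4 and Dclk1. The calls of 31 other members were lost. Those calls, with Tubb3, Map2, Mapt, Kif5a and Kif7 among them, rest on the spread between libraries of a line. With a pseudocount of 0.1, 13 members differed by 2-fold or more between Non-SMC#1 and Non-SMC#2, and Tuba8 turned to 0.027. The share of all rows in that comparison was not computed at this pseudocount, so the count is not a result about the members. Between SMC and Non-SMC, 5659 of 13122 rows were called at 2-fold or more at this pseudocount, against 4632 in the main fit. Quantile normalization turned Tuba1b (0.00012), Tuba4a (0.047) and Tubb4b (0.034), and median-ratio scaling turned Kif14 (0.038), none of them then called. Leaving out single libraries gave -0.055 to 0.020 for Kif14, -0.014 to 0.060 for Tubb5, -0.0087 to 0.092 for Tuba1a and a median of 0.16 to 0.29 for the mitotic kinesins. Depth limits members under 1 FPKM. The cause of these shifts was not tested.

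The deviations of same-numbered libraries correlated at -0.38 to 0.31 over the 6 pairs. In SMC#2 and Non-SMC#2 the values were 0.31 for replicate 1, 0.28 for replicate 2 and -0.08 for replicate 3. Differently numbered libraries were not compared, so these values cannot decide whether replicate numbers pair the libraries. With the replicate block 44 members were called in place of 45, and 20 at 2-fold or more as before.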
